A study of Mus musculus with 32 samples.

Results

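The 45 primary cilium genes described here were listed by name: subunits of the intraflagellar transport complexes and their motors, the BBSome, ciliary GTPases and cargo adaptors, the transition zone and basal body, the inversin compartment, and the transcription factors Glis2 and Glis3. The rule for the list names genes and uses no measured value, though the list was chosen with earlier results of these data known. All 45 were found among the 53700 genes of the count table, and all 45 were among the 13961 genes that passed a filter on low counts and were tested. The primary cilium is a solitary antenna that most renal tubule cells carry on their luminal face. It grows from a basal body by intraflagellar transport, in which IFT-B trains carry material outward on kinesin-2 and IFT-A trains return on dynein-2, while the BBSome and the transition zone control which membrane proteins stay in the organelle. The polycystins, products of Pkd1 and Pkd2, reside in the ciliary membrane, and inherited defects in many of the genes listed here give cystic kidneys.

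RNA was sequenced from whole kidneys of 32 male C57BL/6 mice of the line iKspCre-Pkd1del, in which a tamoxifen-inducible Cre under the kidney-specific cadherin promoter can remove exons 2 to 11 of Pkd1 from tubule epithelium. The 12 PKD and 12 PKD + Salsalate mice carried the deletion, induced with tamoxifen at 150 mg/kg on postnatal days 18 and 19, and were 95 days old. The PKD + Salsalate mice ate chow with 2.5 g/kg salsalate, a salicylate prodrug that activates AMPK, for their last 2 weeks, from day 81, and the PKD mice ate plain chow. The study selected the 12 mice of each of these 2 groups for a similarly mild cystic disease, by kidney weight over body weight after treatment. The 8 wildtype mice had not received tamoxifen and are labelled as 109 days old, so that the deletion, the tamoxifen and the labelled age difference cannot be told apart. That label does not match the growth protocol, which has every mouse killed by day 95. In whole kidney, fewer cells of a type and less RNA per cell cannot be told apart either.

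Counts on genes were between 11193136 and 109807664 per kidney. Among the 8 wildtype libraries, 5 carry an R at the end of their name (the R set), which no other library of the study has and no label explains, and 3 do not (the non-R set). In the R set 13.2% to 15.7% of reads fell on no gene, against 7.60% to 9.77% in the non-R set, 7.65% to 16.4% in PKD and 7.87% to 11.9% in PKD + Salsalate. For 18 of the 45 cilium genes the R set and the non-R set did not overlap, as held for 43.8% of all genes tested, so calls and sizes that depend on the set are given against either set alone. PKD replicate 4 had the largest share of reads on no gene and the largest summed level of the 45 genes, and calls that end without it are named. The tissue carried kidney markers throughout, with 10 proximal tubule genes summing to between 15615 and 31905 CPM (counts scaled to the library size) over the wildtype kidneys.

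All 45 genes were detected in wildtype kidney at levels that differed widely. Per kilobase of transcript, the highest median was that of Arl3, 78.1 CPM per kilobase (56.2 to 98.9 over 8 kidneys), followed by Ift20 with 43.1 (32.0 to 54.9), Bicc1 with 41.7 (27.6 to 46.5) and Glis2 with 35.2 (26.5 to 51.8). The ranges of Ift20, Bicc1 and Glis2 overlapped. The lowest were Nphp4 with 0.532 (0.309 to 0.671), Tmem67 with 1.43 and Wdr19 with 1.51 (1.22 to 1.88). Summed over the 45 genes, the level was 1445 to 1587 CPM in wildtype with a median of 1525, 1521 to 1734 in PKD with a median of 1572, and 1557 to 1634 in PKD + Salsalate with a median of 1599. The 3 ranges overlapped, and the R set had a median of 1547 against 1474 for the non-R set. The sum includes Glis2, which alone was 97.8 to 192 CPM in wildtype and 218 to 296 in PKD. The spread between kidneys, as the coefficient of variation of a gene's CPM, had a median over the 45 genes of 13.3% in wildtype, 11.0% in PKD and 9.14% in PKD + Salsalate, against 17.8%, 13.0% and 11.4% over all genes tested.

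The promoters of these genes were searched for the binding site of the RFX factors. RFX transcription factors bind the X-box, a pair of inverted half-sites like the core GTTGCC with a short spacer, which stands before many ciliary genes. RefSeq promoter records on GRCm38.p6, reaching 250 bases before to 50 after the start of transcription, were matched for 38 of the 45 genes. The core GTTGCC, searched on both strands, was in 17 of the 38 (44.7%), in 14.5% of the 10460 tested genes that have a record and in 14.1% of the 27025 genes of the table that have one. The whole X-box was searched on the gene's strand only, as GTNRCC and RGYAAC with at most 3 bases between. Here N is any base, R is A or G, and Y is C or T. This pattern allows variants of the core, such as GGTAAC in Ift57. A whole X-box was found in 2 of the 38 (5.26%) against 1.15% of the tested genes, and each match is counted among the 17 as well. Windows of at most 30 bases are shown for both whole X-boxes and for the other 5 genes that hold the core and that differed between PKD and wildtype, with the motif in capitals, 5′ to 3′ along the gene.
Ift57: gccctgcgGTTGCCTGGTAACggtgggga
Tctn1: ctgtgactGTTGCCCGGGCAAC
Wdr35: tgggcggcggtgGTTGCCaggc
Ift140: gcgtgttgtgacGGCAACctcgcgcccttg
Ift88: ggagtcgcgcctGGCAACggctgggcgtcc
Nphp4: tggtgcatcccgGTTGCCagctgatgttgg
Bbs1: atggctgagctgGTTGCCaaggcgacgcct
On GRCm38.p6 these windows lie at chr16:49699226-49699254 on the plus strand for Ift57, chr5:122264411-122264432 on the minus strand for Tctn1, chr12:8974029-8974050 on the plus strand for Wdr35, chr17:25015965-25015994 on the plus strand for Ift140, chr14:57424080-57424109 on the plus strand for Ift88, chr4:152478131-152478160 on the plus strand for Nphp4 and chr19:4906609-4906638 on the minus strand for Bbs1. In bases before the start of transcription, the motif centres lay at 54 for Ift57 and 106 for Ift140. They lay after the start, at -43 for Tctn1 and Wdr35, -24 for Ift88 and -4 for Nphp4 and Bbs1. A second copy of the core stood upstream of the X-box in the Ift57 record. Of the 17 genes with a record that differed between PKD and wildtype, 6 held the core (35.3%), and of the 21 that did not differ, 11 did (52.4%).

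Between PKD and wildtype, 23 of the 45 genes (51.1%) passed an adjusted p of 0.05 in edgeR's quasi-likelihood test, close to the 49.1% of all genes tested. The genes went both ways: 9 rose, where 24.1% of all genes rose, and 14 fell, where 25.0% of all genes fell. Most changes were small, with a median absolute log2 fold change of 0.15 over the 45 genes and 0.22 over all genes tested, and a median signed value of -0.03 against -0.01. The largest rise was that of Glis2 and the largest fall that of Arl3. The groups did not overlap for 3 of the 45 genes, Glis2, Ift80 and Ift52, against 7.28% of all genes tested. Against the R set alone 22 of the 45 were called (59.8% of all genes), and against the non-R set alone 17 were called (40.5% of all genes). Of all 45 genes, 6 were called against all wildtype libraries and against either set alone with the same direction. They were Glis2 and Ift80, higher, and Arl3, Tulp3, Ift52 and Ift57, lower. Calls of this kind were found for 2720 of the 13961 genes tested (19.5%). The text below gives fold changes on the log2 scale with their standard errors (SE), for 12 PKD and 8 wildtype kidneys.

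**Figure D1:**
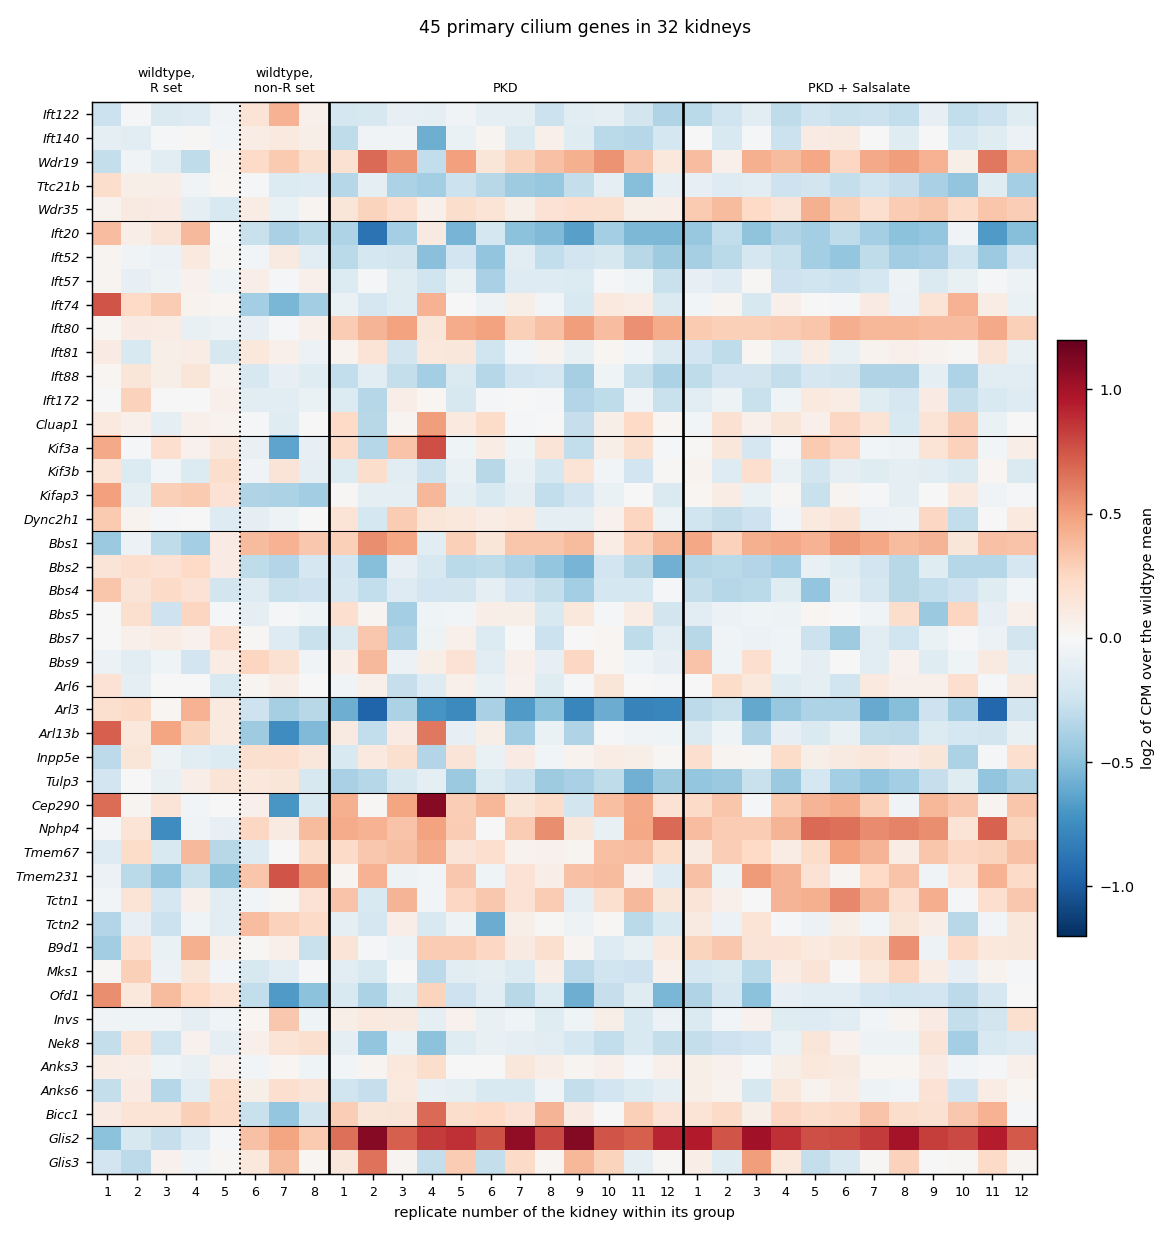
Level of each of the 45 genes (rows, grouped by role) in each of the 32 kidneys (columns), as the log2 of CPM over the mean of log2 CPM in wildtype, red for higher and blue for lower. Glis2 and Ift80 were higher and Ift52 lower in every PKD kidney than in any wildtype kidney, and the dotted line parts the R set of wildtype libraries, on the left, from the non-R set.

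Glis2, a zinc-finger transcription factor that is mutated in a form of nephronophthisis, stood out from the rest (ENSMUSG00000014303, chr16:4412499-4443249 on GRCm39, plus strand). Its level was 97.8 to 192 CPM in wildtype with a median of 130, 218 to 296 in PKD with a median of 243, and 230 to 278 in PKD + Salsalate with a median of 246. Every PKD kidney was above every wildtype kidney. The rise was 0.83 ± 0.09 with an adjusted p of 8.53e-09. Against the R set (97.8 to 136 CPM) it was 1.07 and against the non-R set (172 to 192 CPM) 0.49, with adjusted p of 3.65e-12 and 4.31e-05. Exons of Glis2 overlap exons of Pam16 and Coro7 on the other strand, as exons of 29 of the 45 genes overlap those of some gene there. The strand setting named for the counting is not the usual one for this kind of library kit, and which reads entered the counts was not tested, so values of genes with such overlaps are uncertain in this respect. Its relative Glis3, mutated in a syndrome with diabetes and cystic kidneys, had a log2 fold change of 0.13 ± 0.11 and was not called (adjusted p = 0.332).

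The IFT-A complex, the adaptor of the return trains, had 5 members listed, and all 5 were called, 2 higher and 3 lower. Wdr19 rose by 0.32 ± 0.10, from a median of 9.47 CPM in wildtype (7.66 to 11.8) to 12.1 in PKD (7.73 to 15.2), with an adjusted p of 0.00817. Wdr35 rose by 0.15 ± 0.04 (adjusted p = 0.00603). Ttc21b fell by 0.31 on the log2 scale (SE 0.06), from a median of 12.2 CPM (10.9 to 14.1) to 9.66 (8.57 to 11.3), with an adjusted p of 0.000196. Ift122 fell by 0.18 and Ift140 by 0.17 on the log2 scale, with adjusted p of 0.0155 and 0.0307. The ranges of all 5 genes overlapped between the groups, and each of the 5 was called against only one of the wildtype sets. These were Wdr19 (0.47), Wdr35 (0.15) and Ttc21b (-0.39) against the R set, and Ift122 (-0.38) and Ift140 (-0.25) against the non-R set. Against the non-R set Wdr19, Wdr35 and Ttc21b had 0.11, 0.14 and -0.19 (adjusted p = 0.528, 0.0549 and 0.0743). Against the R set Ift122 and Ift140 had -0.05 and -0.12 (adjusted p = 0.437 and 0.169).

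Of the 9 IFT-B genes, whose products make up the outward trains, 1 rose, 4 fell and 4 were not called. Ift80, a peripheral subunit whose loss narrows the rib cage in Jeune syndrome, was 14.3 to 16.4 CPM in wildtype with a median of 15.3 and 16.9 to 22.3 in PKD with a median of 20.5. Every PKD kidney was above every wildtype kidney (0.40 ± 0.05, adjusted p = 2.01e-08), and the rise was 0.38 and 0.42 against the R and non-R sets. This gene is ENSMUSG00000027778, at chr3:68799832-68911920 on the minus strand of GRCm39. Ift52, a core subunit, went the other way without overlap, from 42.1 to 49.8 CPM in wildtype with a median of 45.7 to a range of 32.4 to 42.0 in PKD with a median of 38.4. It fell by 0.29 on the log2 scale (SE 0.05, adjusted p = 1.35e-05), by 0.31 and by 0.27 against the R and non-R sets. Ift52 is ENSMUSG00000017858, at chr2:162859151-162889887 on the plus strand.

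Ift20, the subunit that also works at the Golgi, was 44.9 to 77.1 CPM in wildtype with a median of 60.5 and 31.9 to 63.5 in PKD with a median of 41.5. It fell by 0.47 on the log2 scale (SE 0.10, adjusted p = 0.000318), and by 0.66 against the R set, while its log2 fold change against the non-R set was -0.12, where it was not called (adjusted p = 0.461). Ift88, whose hypomorphic allele gives the orpk mouse its cystic kidneys, fell by 0.26 (SE 0.05, adjusted p = 0.00016), and Ift57 fell by 0.15 (SE 0.05, adjusted p = 0.0102). Against the non-R set Ift88 had a log2 fold change of -0.11 and was not called (adjusted p = 0.204). Ift74, Ift81, Ift172 and Cluap1 had log2 fold changes of -0.06, -0.02, -0.13 and 0.08 and were not called. The 4 motor genes, Kif3a, Kif3b and Kifap3 of kinesin-2 and Dync2h1 of dynein-2, had log2 fold changes between -0.11 and 0.09. None of them was called with edgeR, none had an unadjusted p under 0.05, and DESeq2 called 0 of the 4 as well. With all wildtype libraries together, their 95% intervals lay between -0.30 and 0.32. Against the R set and the non-R set Kifap3 was called in opposite directions, with values given below.

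**Figure D2:**
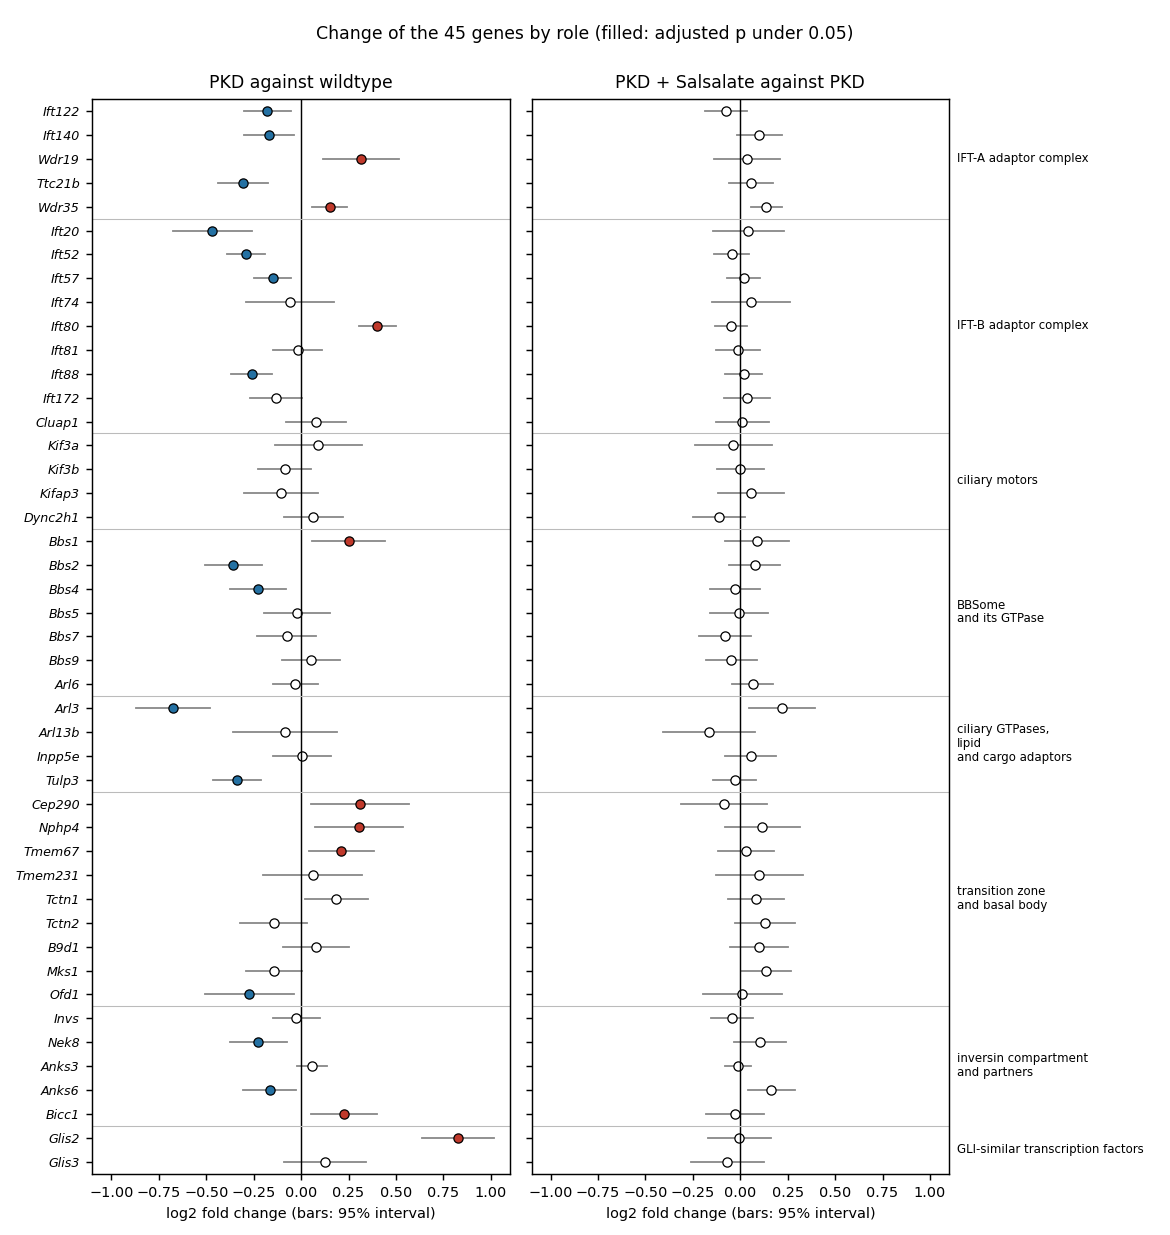
Log2 fold change of each gene with its 95% interval, PKD against wildtype on the left and PKD + Salsalate against PKD on the right, with genes grouped by role and filled points for an adjusted p under 0.05. On the left 9 points are filled to the right of 0 and 14 to the left, and on the right none is filled.

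Of 7 genes of the BBSome and its recruiting GTPase Arl6, 1 rose and 2 fell. Bbs1, the subunit that binds Arl6, was 10.3 to 18.7 CPM in wildtype with a median of 14.2 and 12.8 to 20.7 in PKD with a median of 17.4. It rose by 0.25 ± 0.09 (adjusted p = 0.0277), although the non-R set held 17.6 to 18.7 CPM, and against that set its log2 fold change was -0.07 (adjusted p = 0.559). Bbs2 was 25.3 to 37.9 CPM in wildtype with a median of 35.1 and 21.7 to 30.1 in PKD with a median of 25.6. It fell by 0.36 on the log2 scale (SE 0.07, adjusted p = 0.000177), and by 0.53 against the R set, while its log2 fold change against the non-R set was -0.06, where it was not called (adjusted p = 0.589). Bbs4, which links the BBSome to centriolar satellites, fell by 0.23 (SE 0.07, adjusted p = 0.0104), and its log2 fold change against the non-R set was 0.01. Bbs5, Bbs7, Bbs9 and Arl6 had values between -0.08 and 0.05 and were not called.

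Among the 4 GTPase, lipid and cargo genes, 2 fell and 2 were not called. Arl3, the GTPase that releases lipid-anchored cargo inside the cilium, fell most of the 45 genes (ENSMUSG00000025035, chr19:46519535-46561646 on GRCm39, minus strand). It was 53.8 to 94.7 CPM in wildtype with a median of 74.7 and 36.4 to 54.6 in PKD with a median of 44.0, so that the ranges met only at their edges. It fell by 0.68 on the log2 scale (SE 0.10, adjusted p = 5.99e-07), by 0.87 against the R set and by 0.32 against the non-R set (adjusted p = 0.0208). Tulp3, which brings receptors into the cilium on IFT-A, was 56.5 to 74.2 CPM in wildtype with a median of 68.3 and 44.5 to 61.3 in PKD with a median of 51.5. It fell by 0.34 (SE 0.06, adjusted p = 3.26e-05), and by 0.33 and 0.36 against the R and non-R sets. Tulp3 is ENSMUSG00000001521, at chr6:128298104-128332821 on the minus strand. Inpp5e, the ciliary phosphoinositide phosphatase, had a log2 fold change of 0.01 ± 0.07, and Arl13b, the GTPase that recruits it, had -0.08 ± 0.13.

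**Figure D3:**
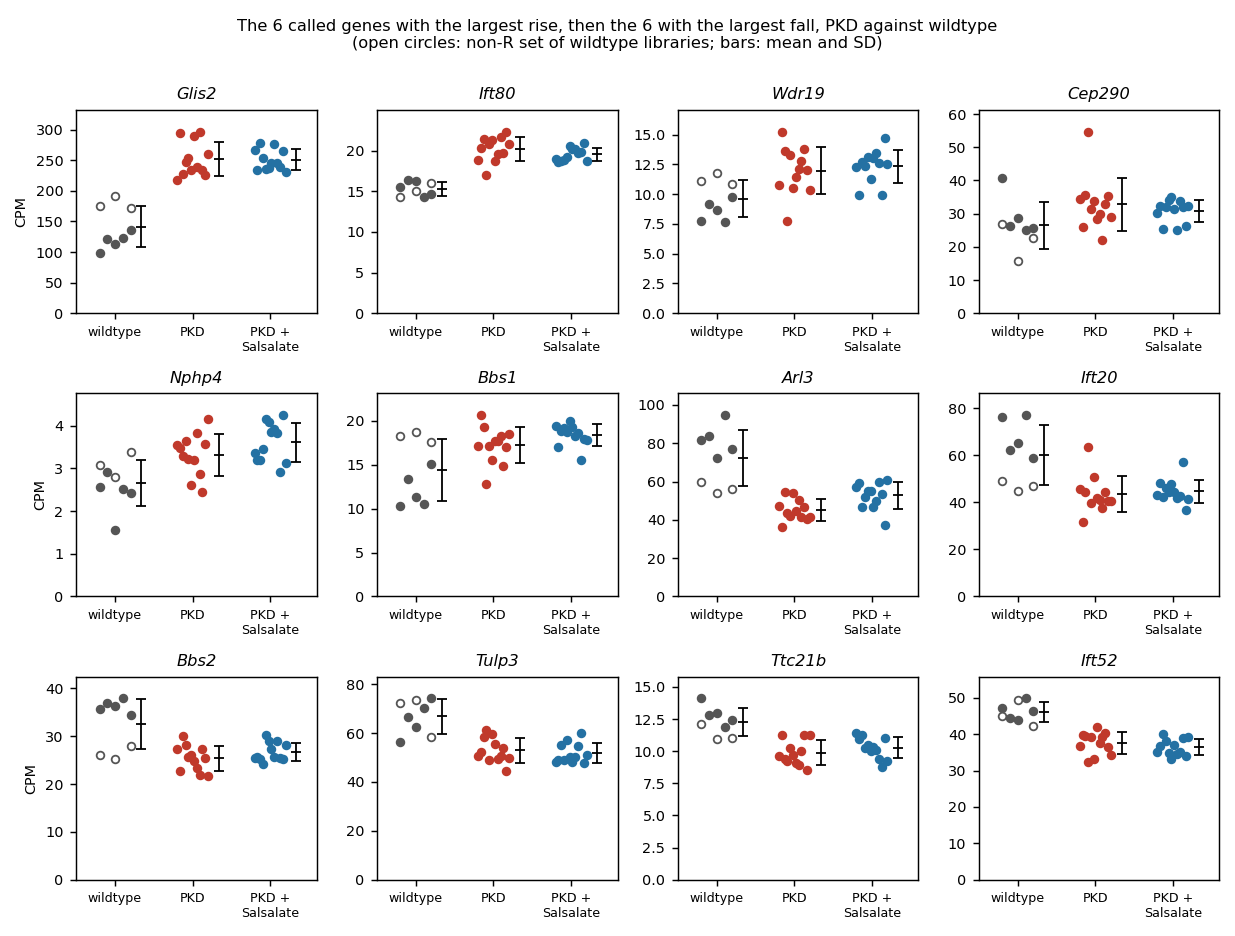
CPM of the 6 called genes with the largest rise and the 6 with the largest fall between PKD and wildtype, a point for each kidney, with the mean and SD of each group as bars and the non-R set of wildtype libraries as open circles. PKD kidneys lay apart from wildtype for Glis2, Ift80 and Ift52, while the open circles lay within the PKD range for Bbs1, Wdr19, Nphp4, Ift20 and Bbs2.

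At the transition zone and basal body, 3 of 9 genes rose and 1 fell. Cep290, which tethers membrane to microtubule at the zone, was 15.8 to 40.8 CPM in wildtype with a median of 26.0 and 22.1 to 54.6 in PKD with a median of 32.2. It rose by 0.31 ± 0.13 (adjusted p = 0.0427), and by 0.22 with an adjusted p of 0.0893 without PKD replicate 4, which held its highest value. Its log2 fold change was 0.15 against the R set, where it was not called (adjusted p = 0.353), and 0.58 against the non-R set (adjusted p = 0.00719). Nphp4, a nephronophthisis protein, was 1.55 to 3.37 CPM in wildtype with a median of 2.67 and 2.44 to 4.15 in PKD with a median of 3.39, a rise of 0.31 ± 0.11 (adjusted p = 0.0251). Its log2 fold change was 0.45 against the R set and 0.11 against the non-R set, where it was not called (adjusted p = 0.562). Tmem67, the receptor-like meckelin, rose by 0.21 ± 0.08 (adjusted p = 0.0378), and was not called without PKD replicate 4 (adjusted p = 0.057), without PKD replicate 10 (adjusted p = 0.0557) or against either wildtype set alone. Ofd1, a protein of centrioles and their satellites, fell by 0.27 (SE 0.11, adjusted p = 0.0484), by 0.54 against the R set, with a log2 fold change of 0.25 against the non-R set. Neither it nor Cep290 was called without PKD replicate 10 (adjusted p = 0.0607 and 0.0514), and Ofd1 was not called without PKD + Salsalate replicate 11 (adjusted p = 0.0523). Tmem231, Tctn1, Tctn2, B9d1 and Mks1 had values between -0.14 and 0.19 and were not called.

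In the inversin compartment, a stretch of cilium next to the transition zone, Nek8 and Anks6 fell by 0.23 (SE 0.07, adjusted p = 0.0125) and by 0.17 (SE 0.07, adjusted p = 0.0426). Anks6 activates the kinase Nek8, and mutations in either gene give cystic kidneys. Both were called against the non-R set and neither against the R set. Anks6 was not called without PKD replicate 10 (adjusted p = 0.06). Bicc1, an RNA-binding protein that assembles with Anks3 and Anks6, rose by 0.23 ± 0.09 (adjusted p = 0.0265), and was not called without PKD replicate 4 (adjusted p = 0.0523). Its log2 fold change was 0.05 against the R set, where it was not called (adjusted p = 0.616), and 0.56 against the non-R set. Invs and Anks3 had log2 fold changes of -0.02 and 0.06 and were not called.

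The choice of wildtype libraries turned 4 further genes around. Ift74, Kifap3 and Arl13b were lower in PKD than in the R set (-0.32, -0.33 and -0.39) and higher than in the non-R set (0.44, 0.31 and 0.53), and Tmem231 was higher than in the former (0.45) and lower than in the latter (-0.39). All 8 of these values had an adjusted p under 0.05, and none of the 4 genes was called with all wildtype libraries together. Opposite calls of this kind were found for 6.17% of all genes tested. Arl13b shows the size of the gap between the libraries, at 13.7 to 20.8 CPM in the R set and 7.55 to 9.40 in the non-R set, with PKD kidneys at 9.49 to 19.5.

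**Figure D4:**
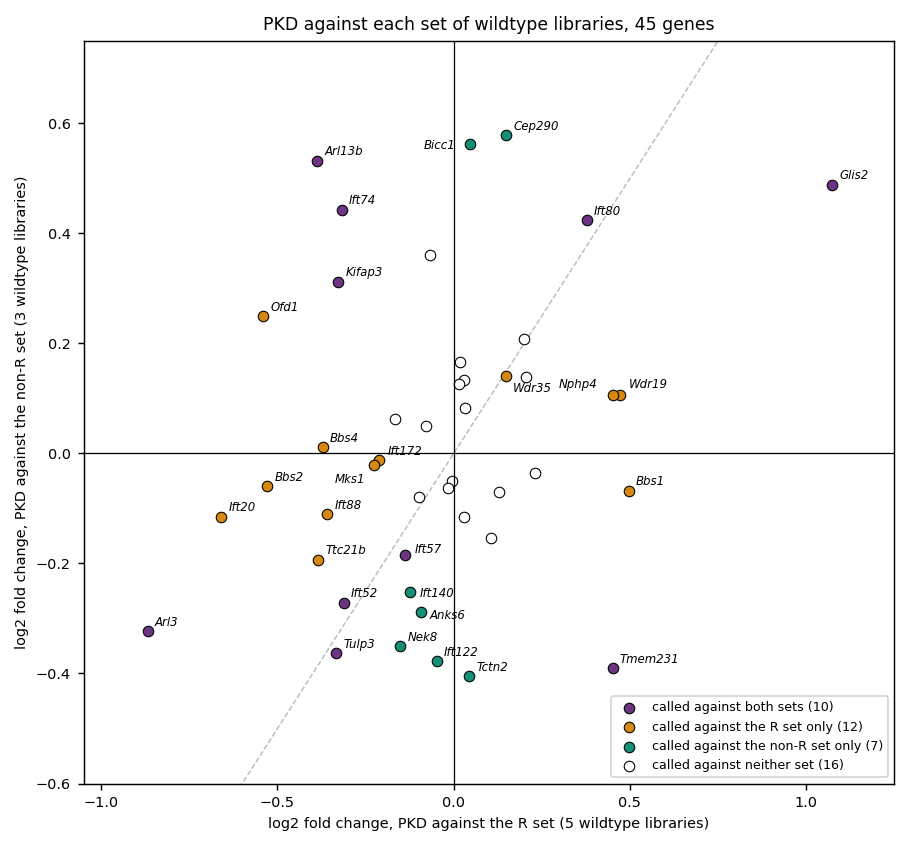
Log2 fold change of each of the 45 genes in PKD against the R set of wildtype libraries (horizontal axis) and against the non-R set (vertical axis), with colours for the set against which a gene was called and a dashed line where both are equal. Glis2, Ift80, Arl3, Tulp3, Ift52 and Ift57 were called on the same side of 0 on both axes, and Ift74, Kifap3, Arl13b and Tmem231 on opposite sides.

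Salsalate was given to PKD mice for their last 2 weeks. This comparison asks whether these genes differed between treated and untreated mice that had been selected for similarly mild disease after treatment. None of the 45 was called between PKD + Salsalate and PKD with edgeR, and 1 was with DESeq2. For DESeq2 the share of all genes called is not given. Of all genes tested 0.58% were called with edgeR, 0.251% higher and 0.329% lower. An unadjusted p under 0.05 was found for 4 of the 45, against 10.3% of all genes. No cilium gene separated the groups, as 0.0287% of all genes did. The log2 fold changes lay between -0.16 and 0.22 and all 95% intervals between -0.41 and 0.40, with a median absolute value of 0.06 over the 45 genes and 0.07 over all genes tested.

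The smallest p was that of Wdr35, an IFT-A subunit. It was 22.3 to 25.8 CPM in PKD with a median of 24.1, 23.9 to 28.7 in PKD + Salsalate with a median of 26.4, and 18.8 to 23.2 in wildtype with a median of 22.0. Its log2 fold change with salsalate was 0.14 ± 0.04 (adjusted p = 0.0979, between 0.0436 and 0.27 over the alternatives), and its value against wildtype was 0.29 ± 0.04 in PKD + Salsalate. It was called by DESeq2 (adjusted p = 0.0436) and when the R set was left out of the fit (adjusted p = 0.0478). The others with an unadjusted p under 0.05 were Anks6 (0.16 ± 0.06, adjusted p = 0.26), Arl3 (0.22 ± 0.09, adjusted p = 0.306) and Mks1 (0.14 ± 0.06, adjusted p = 0.459). Arl3 was 37.1 to 60.8 CPM with salsalate with a median of 54.2, which overlapped both other groups. For Glis2 and Ift80 the log2 fold changes with salsalate were -0.01, with an interval of -0.17 to 0.16, and -0.05, with an interval of -0.13 to 0.03.

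**Figure D5:**
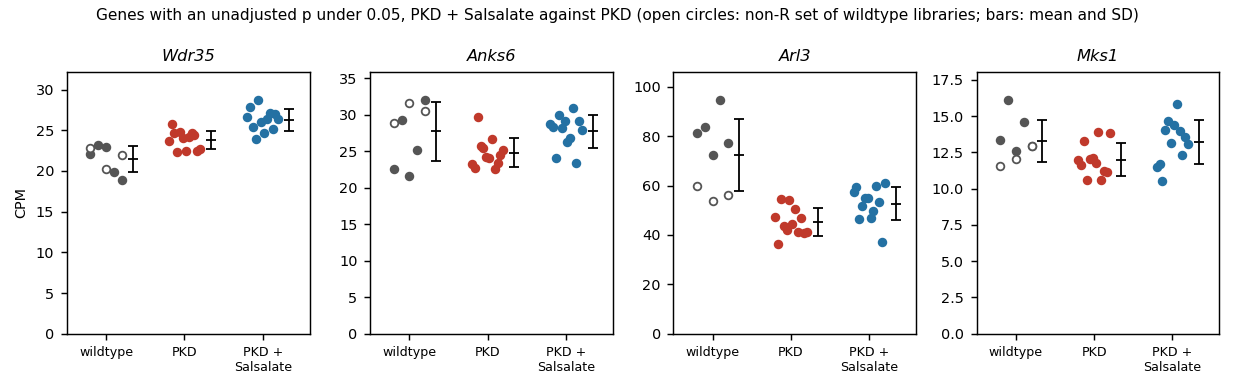
CPM in each kidney of the 4 genes with an unadjusted p under 0.05 between PKD + Salsalate and PKD, with the mean and SD of each group as bars and the non-R set of wildtype libraries as open circles. The PKD + Salsalate and PKD kidneys overlapped in each of the 4 genes.

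Against wildtype, PKD + Salsalate kidneys had 18 of the 45 genes called, 8 higher and 10 lower, where 44.9% of all genes were called, 21.8% higher and 23.2% lower. This comparison uses the same 8 wildtype kidneys as that of PKD. Glis2 was 0.82 ± 0.09 and Ift80 0.35 ± 0.05 higher, beside 0.83 and 0.40 in PKD. Ift20, Tulp3 and Ift52 fell by 0.43, 0.37 and 0.34, beside 0.47, 0.34 and 0.29 in PKD, and Arl3 fell by 0.46, beside 0.68. The other genes called higher were Nphp4 (0.42), Wdr19 (0.35), Bbs1 (0.34), Wdr35 (0.29), Tctn1 (0.27) and Tmem67 (0.24). Those called lower were Bbs2 (-0.28), Bbs4 (-0.25), Ttc21b (-0.25), Ift122 (-0.25), Ift88 (-0.24) and Ift57 (-0.13). Against the non-R set 6 of the 18 were called, Glis2, Ift80, Wdr35, Tulp3, Ift52 and Ift122. The other 12 were not, among them Arl3 (log2 fold change -0.10, adjusted p = 0.509), Ift20 (-0.07, adjusted p = 0.68) and Bbs2, whose log2 fold change of 0.02 had changed sign. Against the R set 2 of the 18 were not called, Ift122 (adjusted p = 0.0543) and Ift57 (adjusted p = 0.0889). For PKD + Salsalate the shares of all genes called against either set alone are not given. For PKD against the R set and the non-R set they were 59.8% and 40.5%.

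Genes of the ciliary machinery outside the list also went both ways. Of 63 further structural cilium genes 58 were tested between PKD and wildtype, and 12 rose and 12 fell, with a median log2 fold change of 0.01. Of all genes tested, 24.1% rose and 25.0% fell. Among other IFT and motor subunits 4 of 15 rose and 5 fell, led by Dynll1, a light chain shared with cytoplasmic dynein and myosin V (0.81 ± 0.10), and Dynlrb1 (-0.28 ± 0.07). Among other BBS genes 1 of 7 rose, the chaperonin-like Bbs12 (0.64 ± 0.10), and 1 fell, Ift27 (-0.22 ± 0.08), which also counts among the IFT subunits. Among other transition zone and nephronophthisis genes 5 of 23 rose, led by Tmem17 (0.40 ± 0.11), and 5 fell, led by the Joubert syndrome gene Ahi1 (-0.66 ± 0.17), which was -1.04 against the R set and 0.24 against the non-R set. Among ciliary cargo and membrane genes 2 of 14 rose, the receptor Gpr161 (0.63 ± 0.17) and Cys1, the gene mutated in the cpk mouse with cystic kidneys (0.46 ± 0.06), and 2 fell, led by the adenylyl cyclase Adcy5 (-0.46 ± 0.08). Dynll1, Bbs12, Gpr161, Cys1 and Adcy5 were called against either wildtype set alone, while Dynlrb1, Ift27 and Tmem17 were not called against the non-R set (adjusted p = 0.766, 0.62 and 0.0739). None of the 58 was called between PKD + Salsalate and PKD with edgeR or DESeq2, and 5 had an unadjusted p under 0.05, against 10.3% of all genes.

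The polycystin genes rose together with Pkhd1, which encodes fibrocystin. Pkd1 rose by 0.42 ± 0.11, Pkd2 by 0.47 ± 0.07 and Pkhd1 by 0.85 ± 0.09 in PKD against wildtype, and all 3 were also called in PKD + Salsalate against wildtype. Against the R and non-R sets the log2 fold changes were 0.53 and 0.25 for Pkd1, 0.52 and 0.37 for Pkd2 and 1.06 and 0.54 for Pkhd1, all called except Pkd1 against the non-R set (adjusted p = 0.178). Pkd1 was counted over the whole gene, so its level does not check the deletion of exons 2 to 11. Of the RFX family and FOXJ1, a list of transcription factors known for ciliary genes, 5 RFX genes were tested, and 3 were called higher and none lower. Foxj1, the master factor of motile cilia, was 0.0744 to 0.254 CPM in wildtype with a median of 0.0928 and 1.36 to 3.19 in PKD with a median of 2.06. It passed the count filter only through the PKD and PKD + Salsalate kidneys, so its levels are given as a description. Rfx5, known as a factor of MHC class II promoters (0.51 ± 0.11), Rfx2 (0.42 ± 0.10) and Rfx1 (0.34 ± 0.09) rose, Rfx3 and Rfx7 had values of 0.18 and 0.07 and were not called, and Rfx4 was under the count filter. Rfx1, Rfx2 and Rfx5 were called against the R set and not against the non-R set.

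Markers of other cell types also differed between the groups. All 8 fibroblast and pericyte markers rose in PKD, their summed level being 355 to 523 CPM in wildtype, 821 to 1365 in PKD and 765 to 1712 in PKD + Salsalate. All 7 tested leukocyte markers of 9 rose, from 264 to 422 CPM in wildtype to 618 to 992 in PKD, and 554 to 972 with salsalate. All 7 markers of tubule injury rose, from 384 to 678 CPM to 1442 to 3181 and 1278 to 4053. All 5 podocyte markers fell, with summed levels of 241 to 370, 213 to 245 and 222 to 284 CPM. All 5 red blood cell markers fell, with 245 to 806, 44.9 to 164 and 70.5 to 311 CPM. Of 6 pan-tubular markers 4 rose and none fell, at 1093 to 1517, 1226 to 1651 and 1149 to 1495 CPM. Other lists were mixed: of 12 distal nephron and collecting duct markers 1 rose and 5 fell. Of 10 proximal tubule markers 2 rose and 1 fell, and of 7 endothelial markers 3 rose and 2 fell. PKD replicate 10 held 3709 CPM of 8 liver markers, against a median of 94.0 in its group. Without that kidney Glis2, Ift80, Arl3, Tulp3, Ift52 and Ift57 had log2 fold changes of 0.84, 0.40, -0.68, -0.34, -0.30 and -0.16, all called. Apart from that kidney, the part of these cell types in the changes of the cilium genes was not tested.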

How the data were processed

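RNA-seq of 32 kidneys was used: 8 wildtype, 12 PKD and 12 PKD + Salsalate, grouped by the submitters' titles. The authors prepared strand-specific libraries, trimmed reads with cutadapt 2.10, aligned them with STAR 2.7.5a to GRCm39 and deposited raw counts per Ensembl gene from HTSeq 0.12.4, with a strand setting that is not the usual one for this kit and with no normalization (tools per the labels and the study's methods). Reads on no gene, 7.60% to 16.4% of each library, and other summary rows were left out of library sizes. Precision is limited by depth (11193136 to 109807664 counts on genes) and by the number of kidneys.

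Counts were fitted in R 4.3.3 with edgeR 4.0.16 (quasi-likelihood test, 3 groups in one fit, TMM factors), over the 13961 genes with log2 CPM above 1 (prior count 2) in at least 25% of kidneys. P-values are 2-sided and adjusted by Benjamini-Hochberg over all 13961 genes, with a threshold of 0.05. CPM uses TMM-scaled library sizes. Coordinates and transcript lengths come from GENCODE M39 on GRCm39, while the authors counted on Ensembl release 103. The fit was tested on simulated data. Alternatives were DESeq2 1.42.0 (size factors, and its Wald test), upper-quartile factors, no filter, filterByExpr, only the groups compared, replicate number as a block, either set of wildtype libraries, and single kidneys left out. Leaving out PKD replicate 4 was chosen after seeing the data. The members and all gene lists were chosen with earlier results of these data known. In each comparison every called cilium gene was named, and ranges were given for the 6 largest rises and 6 largest falls in PKD and for the smallest p with salsalate. From other lists the largest called rise and fall were named, except where a gene is not reported here, with all polycystin and RFX/FOXJ1 genes and, in the closing section, Hedgehog genes, of which 1 is not reported here. Arl13b, the genes with opposite calls and those with an unadjusted p under 0.05 with salsalate were named after their values were seen. Replicate kidneys are separate mice.

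The replicate numbers did not pair the kidneys: correlations of same-numbered kidneys' deviations from their group means lay between -0.55 and 0.47 for PKD and wildtype and between -0.40 and 0.41 for PKD + Salsalate and PKD.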

Additional observations from a re-analysis of the deposited data

Results flagged for a closer look

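In each of 3 cilium genes 1 of the 8 wildtype kidneys lay farther from the other 7 than Dixon's 95% limit allows; chance alone gives about 1 such kidney in 20 groups, and 45 groups were examined. Ift172, an IFT-B subunit, was 61.2 CPM in wildtype replicate 2, with the next highest kidney at 52.7. Dync2h1, the heavy chain of dynein-2, was 36.8 CPM in wildtype replicate 1, with the next at 30.5. Invs, which encodes inversin, was 27.2 CPM in wildtype replicate 7, with the next at 22.1. None of these 3 genes was called between PKD and wildtype. The PKD and PKD + Salsalate groups, with 12 kidneys each, are too large for this limit and were not examined in this way.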

How the results depend on the processing

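Ift52, Ift80, Arl3, Tulp3 and Glis2 were called between PKD and wildtype in all 13 alternatives, and Ift57 in all but the one with no count filter (adjusted p = 0.0839). Between PKD and wildtype the 9 genes called higher became 4 when only these groups were fitted, and the 14 called lower became 9 with no count filter. With salsalate against PKD, 1 gene was called higher, Wdr35, by DESeq2's Wald test and 1 in the fit with only the non-R set of wildtype libraries. PKD + Salsalate against wildtype had 5 genes called lower against the non-R set, in place of 10. The causes were not tested. Against the non-R set, PKD changed sign for Bbs1 (-0.068), Bbs4 (0.011) and Ofd1 (0.25), and PKD + Salsalate for Bbs2 (0.016). Leaving out single kidneys gave 7 to 9 higher and 12 to 14 lower genes in PKD against wildtype, 0 to 0 either way with salsalate against PKD, and 8 to 9 higher and 10 to 11 lower in PKD + Salsalate against wildtype. With the replicate number as a block, which does not pair the kidneys, PKD against wildtype had 8 higher and 11 lower, PKD + Salsalate against PKD 0, and PKD + Salsalate against wildtype 9 and 10, and the calls over all genes moved from 6852 to 5839, 81 to 48 and 6269 to 5392. Over single genes and alternatives, 248 values in PKD against wildtype kept direction and call, 48 lost the call and 3 changed sign. The median log2 fold change of all genes lay between -0.0247 and 0.019 under the 3 scalings. Depth limits the genes at a few CPM most, such as Nphp4 and Tmem67.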

Other observations

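Genes that control cilium assembly and disassembly, and genes of centriole duplication, rose in part in PKD against wildtype. Of all genes tested in this comparison 24.1% rose and 25.0% fell. Of 11 assembly and disassembly genes 5 rose and none fell. The 5 were the mitotic kinases Aurka (2.00 ± 0.19), Plk1 (1.29 ± 0.11) and Nek2 (1.22 ± 0.19), the kinesin Kif24 (0.88 ± 0.17) and Ccp110, which caps the centriole (0.56 ± 0.10). Of 6 tested centriole duplication genes 4 rose, Stil (2.61 ± 0.23), Sass6 (0.55 ± 0.12), Plk4 (0.53 ± 0.13) and Cep192 (0.46 ± 0.09), and none fell. All 9 were called against the R set and the non-R set of wildtype libraries alike. All 6 cell-cycle markers rose as well, from a summed 42.1 to 65.7 CPM in wildtype to 104 to 184 in PKD and 90.8 to 154 with salsalate, and their part in these rises was not tested. With salsalate against PKD 10 of the 11 assembly and disassembly genes and all 6 centriole genes had log2 fold changes below 0. So had 7537 of all 13961 genes tested. All 6 cell-cycle markers were below 0 too, and 3 of them were called lower (median -0.50). None of the 17 genes was called with edgeR, and 5 had an unadjusted p under 0.05, against 10.3% of all genes tested. DESeq2, whose share over all genes is not given, called 1 of the 17, Plk1 (-0.35 ± 0.09 with an adjusted p of 0.0712 in edgeR).

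In the Hedgehog pathway, whose signal passes through the cilium, the ligand Ihh rose by 0.61 ± 0.15. Gli1, a transcriptional target, had a log2 fold change of 0.38 ± 0.18 (adjusted p = 0.0792), and Ptch1, Smo and Sufu had 0.04, -0.16 and 0.04 and were not called. Ihh was not called against the non-R set (adjusted p = 0.204). Shh, Dhh, Gli2, Gli3 and Hhip were under the count filter. Of 25 genes of motile cilia 10 were tested, 3 rose, led by Cfap44 (1.85 ± 0.17), and 2 fell, led by Dnah11 (-0.61 ± 0.16).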
